A study of Mus musculus with 6 samples.

Results

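The genes described here are the 50 that load, unwind, copy and supply DNA at replication origins and forks: the origin recognition complex and its licensing partners, the MCM helicase and its activators, the replicative polymerases, the sliding clamp and its loader, the factors that bind single strands and join Okazaki fragments, the fork protection proteins and the enzymes that make deoxynucleotides. They were taken by gene symbol from a list chosen with earlier results of these data known. All 50 were found among the 14788 symbols of the count table. All 50 also passed the filter on low counts, which left 11504 genes. The libraries came from type-2 conventional dendritic cells (cDC2s), dendritic cells best known for priming CD4 T cells, taken from the spleens of C57BL/6 mice. Of the 6 libraries, 3 were from wild-type (WT) cells and 3 from Arhgef1-/- cells, called the knockout below. Arhgef1 encodes a protein that switches on RhoA when receptors coupled to G12 or G13 proteins are engaged. The sources used here give no age, sex, deleted part of the gene, cell type restriction of the deletion or sort. They also do not say whether replicates were separate animals, and the p-values describe only how far these samples vary, a spread that could be technical.

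In the life of a dividing cell, the origin recognition complex marks origins, Cdc6 and Cdt1 load the MCM2-7 ring onto DNA in G1, and Cdc45 and the GINS complex turn the ring into a moving helicase in S phase. Polymerase alpha-primase starts each strand, polymerases epsilon and delta extend the leading and lagging strands, and the clamp Pcna, placed by the RFC complex, holds them on the template. Many of these genes are transcribed mainly in late G1 and S phase under E2F control, whereas others, such as several subunits of the origin recognition complex, are made throughout the cycle. Conventional dendritic cells in the spleen arise from circulating precursors and can still divide in the tissue.

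Library totals ran from 8408325 to 11714365 counts. The targeted gene was lower in the knockout, with Arhgef1 (ENSMUSG00000040940.18) at 287, 317 and 246 CPM (counts scaled to the TMM-adjusted library size) in WT replicates 1, 2 and 3 and at 115, 128 and 144 CPM in knockout replicates 1, 2 and 3, or 45.5% of the WT mean. All 12 cDC2 markers were detected, with WT libraries at 1410 ± 53.0 CPM of Itgax and knockout libraries at 1260 ± 91.0 CPM (SD, n = 3 each). Of the 12, 5 passed the test as lower in the knockout. The 4 with the smallest p were Cd209a, Cd4, H2-Ab1 and Sirpa, with log2 differences of -1.59, -0.67, -0.30 and -0.32. Source names in the labels put every WT library in lane 1 and every knockout library in lane 2 of differently named runs, so lane, run and genotype cannot be told apart.

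Across the whole set, 27 of the 50 replication genes rose in the knockout, 0 fell and 23 did not pass the test (edgeR's quasi-likelihood test, Benjamini-Hochberg adjusted p under 0.05 over all 11504 genes). Over all tested genes, 5.09% were called higher and 4.58% lower. The set was chosen with earlier results of these data known, so this contrast is not independent evidence. Only 1 replication gene, Orc4, was lower at an unadjusted p under 0.05, and DESeq2 and limma-voom likewise called 0 lower. The median log2 fold change of the 50 genes was 0.67, against 0.00 over all tested genes, and single genes ran from -0.30 to 1.16. In 34 of the 50 all 3 knockout values lay above all 3 WT values, and in 2 all 3 lay below, where 13.7% and 13.5% of all tested genes did so. The summed level of the set was 2020, 1990 and 2110 CPM in the WT libraries and 2860, 3250 and 3190 CPM in the knockout libraries. Those sums do not overlap, and knockout replicate 1 lay nearest to WT. In bulk libraries such as these, more cells in S phase and more of these transcripts per cell cannot be told apart. The share of all genes called higher fell to 2.84% without WT replicate 1, 2.62% without WT replicate 2, 3.24% without WT replicate 3 and 2.71% without knockout replicate 2 (3.55% without knockout replicate 3 and 4.94% without knockout replicate 1). In the first 4 of these fits 20, 21, 26 and 21 of the replication genes were called higher.

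**Figure D1:**
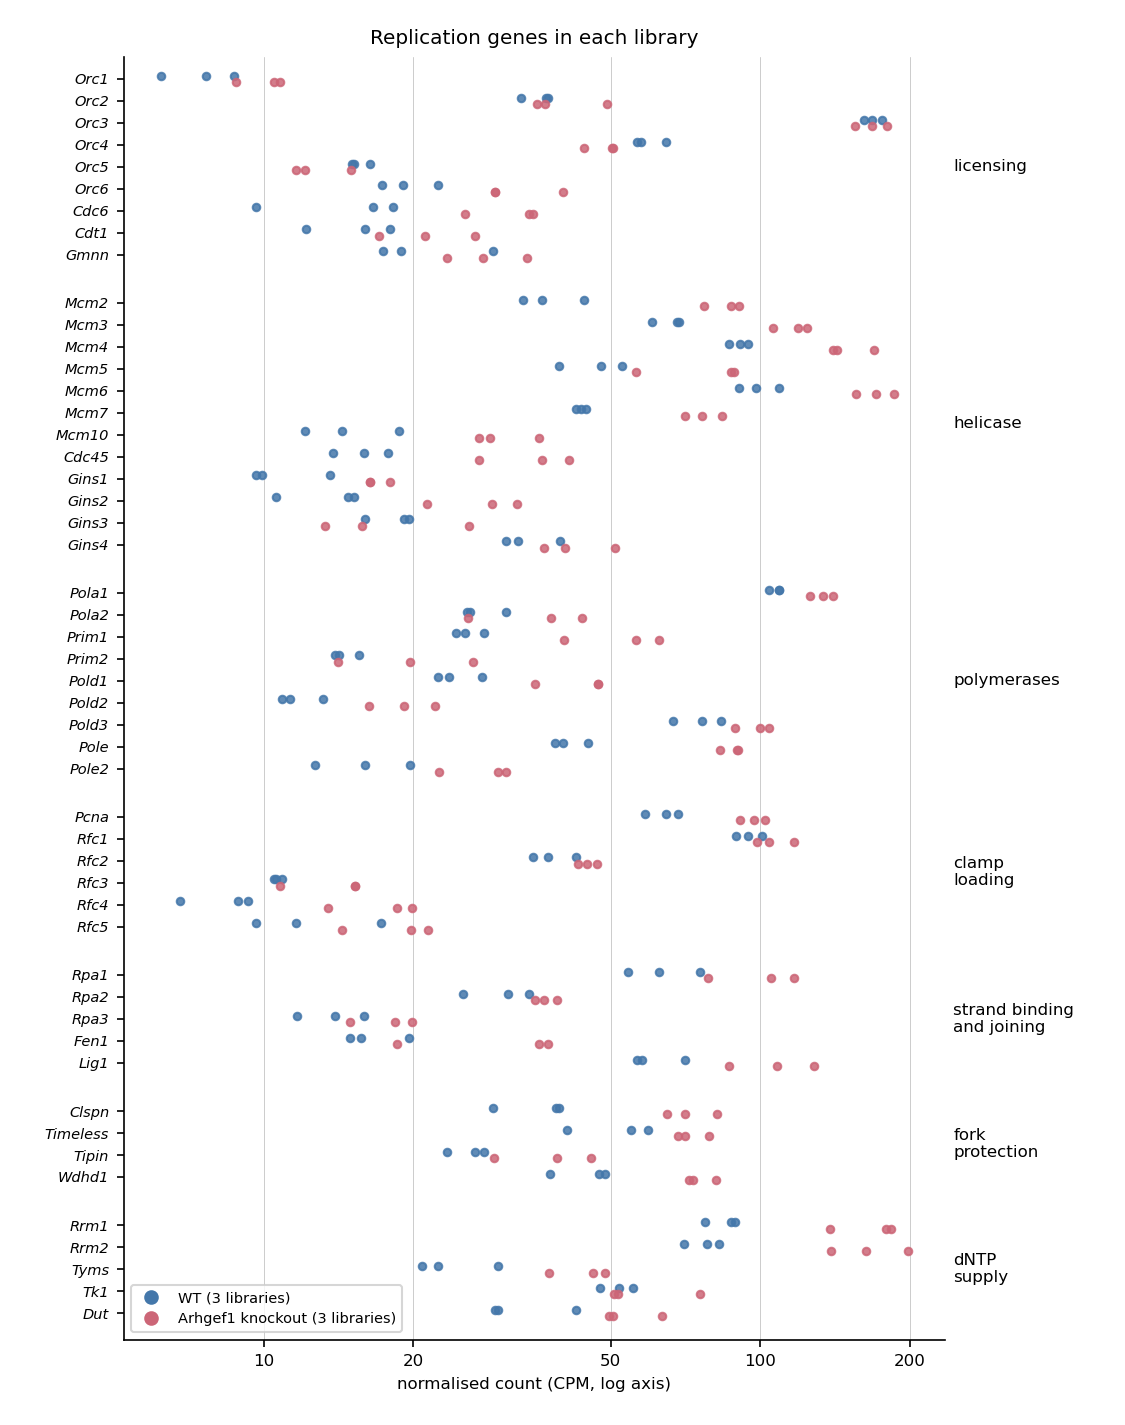
Normalised counts (CPM, log axis) of the 50 replication genes in the 3 WT libraries (blue) and 3 knockout libraries (red), grouped by step. The helicase, dNTP supply and fork protection genes show the red points mostly to the right of the blue, while Orc2 to Orc5 overlap or lie slightly to the left.

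The promoters of these genes are shown first because E2F-bound sites in them are the known route of their S-phase transcription. RefSeq promoters on GRCm38.p6, from 250 bases before to 50 bases after the start of the gene, were given for 41 of the 50 genes. Those without an entry were Gmnn, Mcm4, Gins1, Gins2, Gins4, Prim2, Pole, Rfc2 and Tipin. For the 6 replication genes with more than 1 start, only the first listed start was used, and the others were not searched. Each promoter was searched on both strands for the E2F-type motifs TTTGGCGC, TTTCCCGC, TTTGGCGG, TTTCGCGC and TTTCCCGG, for CCAAT, the core of NF-Y sites, and for the cell cycle homology region (CHR) motifs TTTGAA and TTCGAA. Matches of TTTGGCGC and TTTCGCGC on opposite strands can overlap, since both end in GCGC, which reads the same on either strand. The Mcm6 promoter held 3 E2F-type matches, of which the first pair overlap, within the 120 bases before its start (chr1:128359706-128359825, minus strand), printed with the matches in capitals.
Mcm6: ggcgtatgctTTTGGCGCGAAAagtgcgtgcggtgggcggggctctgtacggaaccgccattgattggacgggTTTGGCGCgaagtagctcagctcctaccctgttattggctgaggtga
The Clspn promoter held its upstream match in this stretch (chr4:126556815-126556934, plus strand), with the motif in capitals on the opposite strand.
Clspn: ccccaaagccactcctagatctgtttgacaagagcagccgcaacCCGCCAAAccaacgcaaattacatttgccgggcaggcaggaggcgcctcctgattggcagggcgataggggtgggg

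Stretches of 30 bases around the match nearest the start are given for the gene with the smallest p of its step that had a match, and for Mcm3, Mcm5 and Mcm7, the other MCM ring genes with a match, which were added after the values were seen. No dNTP supply gene is shown, because Rrm1, Rrm2, Tyms, Tk1 and Dut were all searched and held no E2F-type match. Mcm2, with the largest log2 difference of the set, held none either. Orc3 and Pola2, the genes with the largest p among licensing genes and among polymerase genes with a match, are shown for contrast. Some of the stretches lie within annotated exons. All are written 5′ to 3′ on the strand of the gene with each complete E2F-type match in capitals.
Cdc6 (chr11:98908002-98908031, plus strand): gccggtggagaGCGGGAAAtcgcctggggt
Mcm3 (chr1:20820275-20820304, minus strand): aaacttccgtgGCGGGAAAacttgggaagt
Mcm5 (chr8:75109349-75109378, plus strand): caagaacTTTCGCGCCAAAacgtccagcct
Mcm7 (chr5:138171849-138171878, minus strand): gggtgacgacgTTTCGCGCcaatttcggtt
Pold1 (chr7:44548766-44548795, minus strand): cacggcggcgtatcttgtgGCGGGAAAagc
Rfc3 (chr5:151651190-151651219, minus strand): cTTTCGCGCtcGCGGGAAAactctactgtc
Rpa1 (chr11:75348582-75348611, minus strand): attctgtctgtCCGCCAAAggactgggcgg
Orc3 (chr4:34614965-34614994, minus strand): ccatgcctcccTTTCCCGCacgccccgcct
Pola2 (chr19:5964157-5964186, minus strand): gcgcgctaggcaaagcgTTTGGCGGgtttt
Mcm5 and Mcm6 share a run in which TTTGGCGC on one strand and TTTCGCGC on the other overlap, and in Rfc3 a TTTCGCGC match stands just before a TTTCCCGC match on the opposite strand. Orc3 and Pola2 carry the same kinds of match as genes that rose.

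At least 1 E2F-type match was found in 17 of the 41 replication promoters (41.5%), against 6.9% of 8257 promoters of tested genes and 3.66% of all 27025 promoters in the table. The share was 9 of 24 (37.5%) among replication genes that rose and 8 of 17 (47.1%) among those that did not pass the test, so holding a match did not separate the genes that rose from the others. CHR motifs, which are known from promoters of mitotic genes, were in 6 of 41 replication promoters (14.6%), against 27 of 33 promoters of a list of mitosis and kinetochore genes (81.8%) and 14.2% of tested genes. CCAAT was in 23 of 41 replication promoters (56.1%) and 26 of 33 mitotic promoters (78.8%), with 40.0% over tested genes. These matches describe letters in a window and not bound sites.

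**Figure D2:**
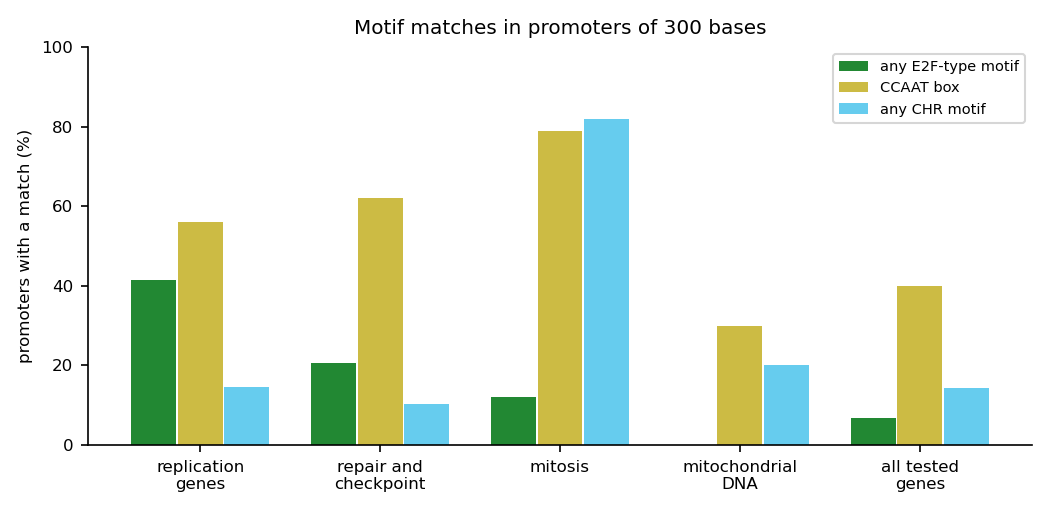
Share of RefSeq promoters (300 bases) with at least 1 match to an E2F-type motif, CCAAT or a CHR motif, for the replication genes, 3 comparison lists and all tested genes. E2F-type matches stand at 41.5% in replication genes and 12.1% in mitosis genes, and CHR matches at 14.6% and 81.8%.

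Licensing had the lowest median log2 fold change of the 7 steps, 0.38. Of its 9 genes Cdc6 and Orc6 rose and 7 did not pass. Cdc6, the ATPase that loads the MCM ring with the origin recognition complex, stood at 18.2, 16.6 and 9.67 CPM in WT and 25.5, 34.9 and 34.3 CPM in the knockout, with no overlap. The log2 difference was 1.09, with an SE of 0.23 (edgeR adjusted p = 0.00589); differences below are given as log2 ± SE. Orc6, the smallest subunit, was at 22.5, 17.3 and 19.1 CPM in WT and 29.3, 40.1 and 29.3 CPM in the knockout, again without overlap (0.74 ± 0.20, edgeR adjusted p = 0.0216). The Orc6 call was lost without WT replicate 2 (0.66), WT replicate 3 (0.72) or knockout replicate 2 (0.57), which leaves Cdc6 as the 1 licensing gene called in those fits. Cdt1, the partner of Cdc6 in loading, was at 16.0, 12.2 and 18.0 CPM and at 17.1, 26.7 and 21.1 CPM. Its groups overlapped through knockout replicate 1, and it did not pass (0.49 ± 0.23, edgeR adjusted p = 0.224). Gmnn, the inhibitor that holds Cdt1 in check after S phase begins, did not pass either (0.38 ± 0.22). The log2 ratio of Cdt1 to Gmnn was -0.48 ± 0.31 in WT and -0.40 ± 0.28 in the knockout (SD, n = 3 each). Ratios of gene pairs are of CPM not divided by length, so they compare the genotypes and not the levels of the genes.

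Orc1 to Orc5, the other subunits of the origin recognition complex, did not pass the test. Orc3 was at 168, 162 and 176 CPM in WT and 168, 155 and 180 CPM in the knockout, with overlapping groups, a log2 difference of -0.01 and a 95% interval from -0.21 to 0.20. Orc2 had 0.18 (-0.16 to 0.53). Orc4 lay below WT in every knockout library, at 57.4, 64.7 and 56.6 against 50.5, 50.4 and 44.1 CPM, but did not pass after adjustment (-0.30 ± 0.14, edgeR adjusted p = 0.196). Orc5 also lay below in every library (-0.27 ± 0.24). Orc1, the subunit known to be made in late G1, stood in WT at 7.54 ± 1.26 CPM (SD, n = 3). All 3 of its knockout values, 10.8, 8.79 and 10.5 CPM, lay above the WT values, but it did not pass (0.41 ± 0.30), with an interval from -0.21 to 1.04. The 6 subunits summed to 303 to 309 CPM in WT and 302 to 325 CPM in the knockout.

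All 6 genes of the MCM2-7 ring rose in the knockout, by 0.73 to 1.16 on the log2 scale, and none of the 6 had overlapping groups. Mcm2 was at 44.1, 33.3 and 36.3 CPM in WT and 77.1, 90.6 and 87.5 CPM in the knockout (1.16 ± 0.14, edgeR adjusted p = 4.99e-05), the largest log2 difference of the 50 genes. Mcm6 was at 90.7, 98.1 and 109 CPM and at 171, 186 and 156 CPM (0.79 ± 0.11, edgeR adjusted p = 0.000159). Mcm3 was at 60.4, 68.5 and 67.9 CPM and at 106, 124 and 119 CPM (0.83 ± 0.12). In each the lowest knockout library exceeded the highest WT library by a wide margin relative to the spread within a group. Mcm4 was at 90.9, 94.4 and 86.5 CPM and at 143, 169 and 140 CPM (0.73 ± 0.11), and Mcm7 had 43.6 ± 1.03 and 76.9 ± 6.60 CPM (SD, n = 3 each; 0.82 ± 0.13). Mcm7 overlaps exons of Ap4m1 and Cops6 on the opposite strand in the annotation, and no source used here states the strand setting of the counting. Mcm5 was the least even of the ring, at 39.4, 52.6 and 47.9 CPM in WT and 56.2, 88.7 and 87.3 CPM in the knockout (0.74 ± 0.17, edgeR adjusted p = 0.00961). Mcm5 missed the threshold at 0.63 without WT replicate 1, at 0.63 without knockout replicate 2 and at 0.64 without knockout replicate 3.

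The factors that activate the ring were split. Cdc45, which rides with MCM2-7 at the fork, rose from 15.8 ± 2.02 to 34.9 ± 7.15 CPM (1.14 ± 0.20, edgeR adjusted p = 0.00135), and Mcm10, which helps start the helicase, from 12.1, 18.7 and 14.4 CPM to 28.6, 35.9 and 27.1 CPM (1.02 ± 0.21). Among the 4 GINS subunits, Gins2 rose from 13.5 ± 2.53 to 27.5 ± 5.67 CPM (1.03 ± 0.23, edgeR adjusted p = 0.00700), and the others did not pass. Gins1 had 0.61 ± 0.25 with no overlap of its groups, and Gins4 0.32 ± 0.17. Gins3 was at 19.2, 19.6 and 16.0 CPM in WT and at 13.3, 25.9 and 15.8 CPM in the knockout, so that knockout replicate 2 was the highest and replicate 1 the lowest of all 6 libraries. Its log2 difference of 0.00 carries an interval from -0.52 to 0.53, and it was -0.33 without knockout replicate 2.

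**Figure D3:**
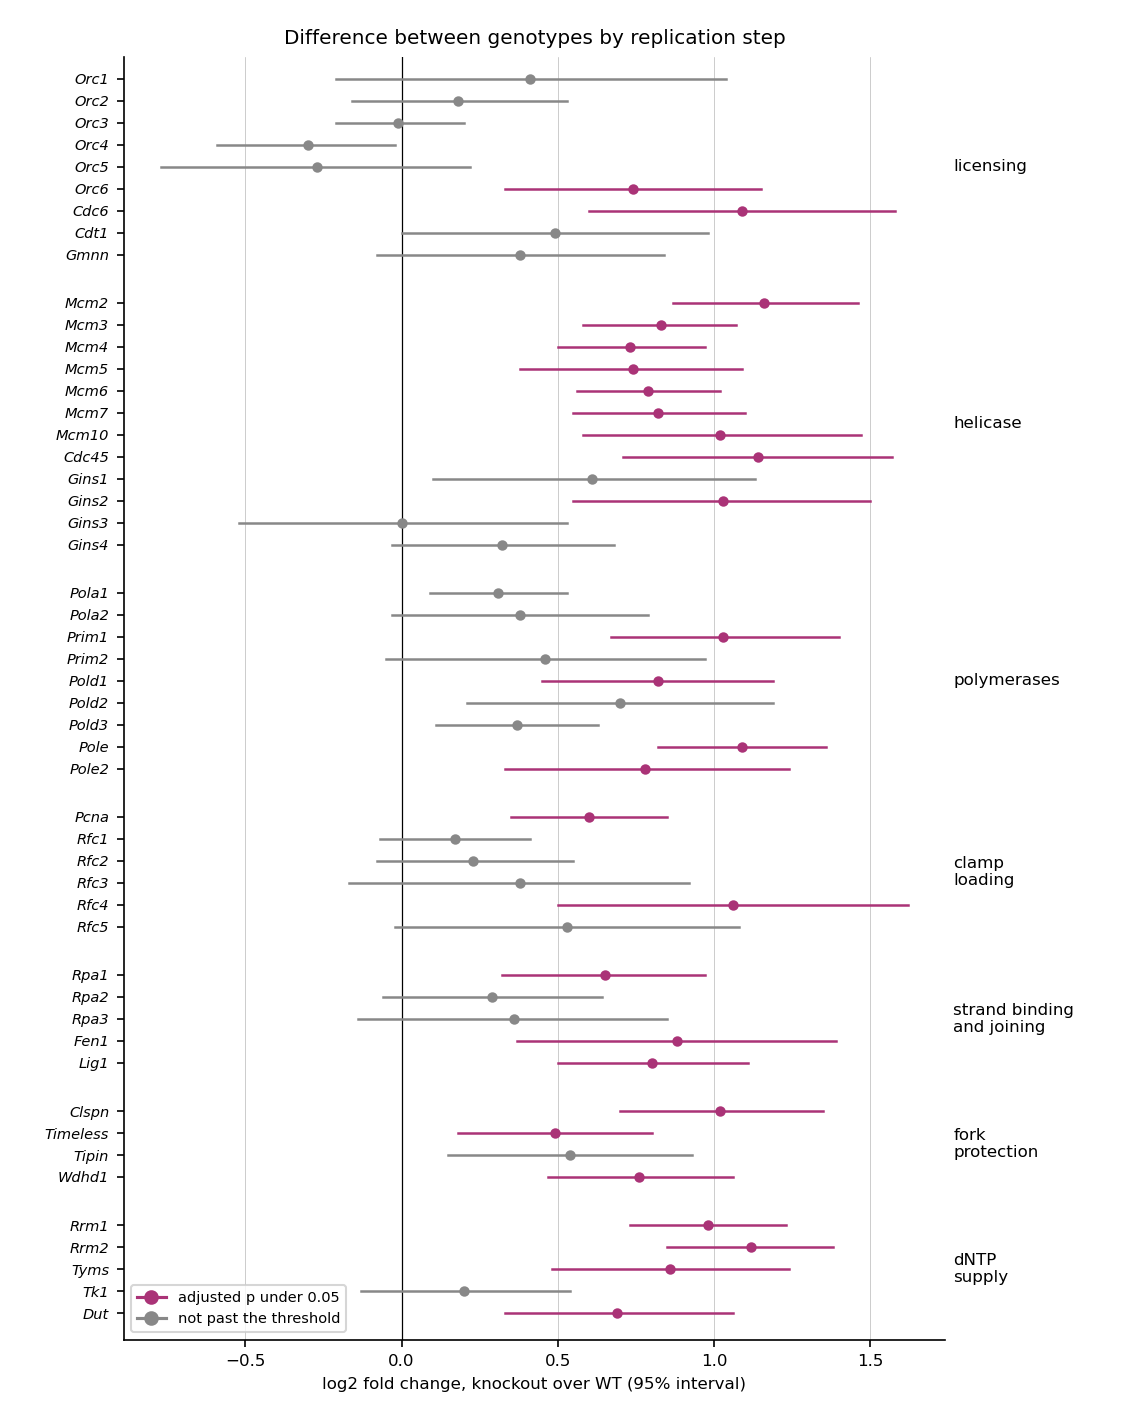
Log2 fold change (knockout over WT) of each replication gene with its 95% interval from the edgeR fit, coloured where the adjusted p was under 0.05. All 6 MCM2-7 genes are coloured and lie between 0.73 and 1.16, and among the 6 Orc genes Orc6 is the coloured one.

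Levels of different genes were compared per length, as CPM per kilobase of summed exon length. Within the origin recognition complex Orc3 was highest in WT at 27.7 and Orc1 lowest at 2.17, a ratio of 12.8. Within the MCM2-7 ring Mcm4 was highest at 25.2 and Mcm2 lowest at 5.45, a ratio of 4.62. Per kilobase of coding length the lowest genes were again Orc1 and Mcm2, but the ratios were 26.3 and 2.90, and Mcm6 at 39.7 lay above Mcm4 at 34.9, with SDs of 3.63 and 1.53. The order of subunits therefore depends on the length used, and the annotated exons of a gene need not all be used in these cells.

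**Figure D4:**
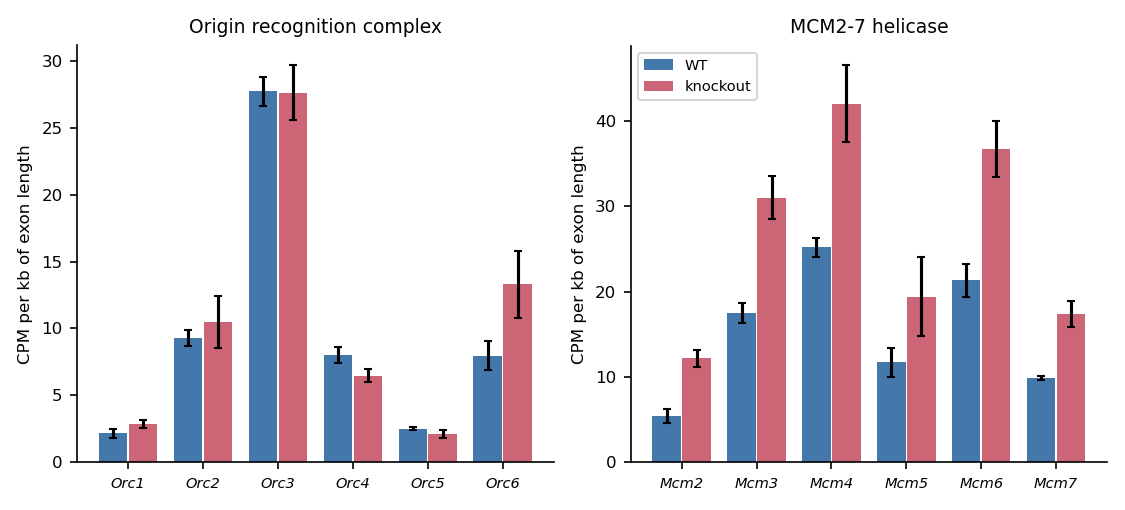
Mean level per kilobase of summed exon length (CPM per kb) of the 6 origin recognition genes and the 6 MCM2-7 genes in WT (blue) and knockout (red), with SD over 3 libraries. Every MCM bar is taller in the knockout, whereas Orc3 has bars of the same height and Orc4 and Orc5 have shorter ones.

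Of the 9 polymerase genes 4 rose, and all 9 had positive log2 fold changes, from 0.31 to 1.09. Pole, the catalytic subunit of the leading strand polymerase epsilon, was at 40.0, 38.6 and 44.9 CPM in WT and 89.7, 83.0 and 90.0 CPM in the knockout (1.09 ± 0.13, edgeR adjusted p = 3.92e-05). Prim1, the catalytic primase subunit, was at 27.8, 25.4 and 24.4 CPM and at 40.3, 62.6 and 56.2 CPM (1.03 ± 0.17, edgeR adjusted p = 0.000821). Pold1, the catalytic subunit of the lagging strand polymerase delta, was at 23.6, 22.5 and 27.5 CPM and at 35.2, 47.2 and 47.2 CPM (0.82 ± 0.17). The catalytic subunits of primase, delta and epsilon thus all rose with no overlap of groups. Pole2, the second subunit of epsilon, was at 12.7, 16.0 and 19.7 CPM and at 22.6, 30.8 and 29.6 CPM (0.78 ± 0.22, edgeR adjusted p = 0.0293). The Pole2 difference was 0.63 without WT replicate 1, 0.78 without WT replicate 2, 0.69 without knockout replicate 2 and 0.73 without knockout replicate 3, none of which passed.

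The remaining 5 polymerase genes did not pass the edgeR test. Pola1, the catalytic subunit of polymerase alpha, was at 109, 104 and 109 CPM in WT and at 134, 140 and 126 CPM in the knockout, with no overlap. Its log2 difference of 0.31 ± 0.10 did not pass (edgeR adjusted p = 0.0669). The delta subunits Pold2 (0.70 ± 0.23) and Pold3 (0.37 ± 0.12) also had every knockout library above every WT library and missed the threshold, with edgeR adjusted p = 0.0669 and 0.068. DESeq2 called all 3 of these genes (DESeq2 adjusted p = 0.0305, 0.0458 and 0.0381 for Pola1, Pold2 and Pold3), which makes 7 of 9 polymerase genes by that tool. Prim2, the large primase subunit, was at 15.6, 13.9 and 14.2 CPM and at 14.1, 26.4 and 19.7 CPM, overlapping through knockout replicate 1 (0.46 ± 0.24). Pola2 had 0.38 ± 0.19.

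In the clamp loading group 2 of 6 genes rose. Pcna, the clamp itself, was at 68.4, 58.5 and 64.5 CPM in WT and 97.2, 102 and 90.9 CPM in the knockout (0.60 ± 0.12, edgeR adjusted p = 0.00359). Pcna has annotated pseudogenes, whose shared reads the counting could have split or dropped. Rfc4, a small subunit of the loader, was at 6.80, 8.87 and 9.32 CPM and at 18.6, 13.5 and 19.9 CPM (1.06 ± 0.27, edgeR adjusted p = 0.0164), and its call was lost without WT replicate 1 (0.93) or knockout replicate 3 (0.95), which leaves Pcna alone in those fits. The other 4 loader genes did not pass. Rfc5 was at 11.6, 17.2 and 9.67 CPM and at 19.8, 21.4 and 14.4 CPM (0.53 ± 0.26), and its groups overlapped. Rfc2 was at 34.9, 37.3 and 42.6 CPM and at 43.0, 44.7 and 47.0 CPM, with the lowest knockout value just above the highest WT value (0.23 ± 0.15). Rfc3 was at 10.9, 10.5 and 10.6 CPM and at 10.8, 15.3 and 15.3 CPM, where knockout replicate 1 sat at the WT level (0.38 ± 0.26). Rfc1, the large subunit, had 0.17 with an interval from -0.07 to 0.41.

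Among the genes that cover single strands and finish Okazaki fragments, Lig1, Rpa1 and Fen1 rose. Lig1, the ligase that seals the fragments, was at 56.5, 70.5 and 57.8 CPM in WT and 86.6, 108 and 128 CPM in the knockout (0.80 ± 0.14, edgeR adjusted p = 0.00146). Rpa1, the large subunit of the single-strand binding protein RPA, was at 62.4, 54.1 and 75.6 CPM and at 78.5, 105 and 117 CPM (0.65 ± 0.15, edgeR adjusted p = 0.0118). Fen1, the flap nuclease, was at 14.9, 15.7 and 19.6 CPM and at 18.6, 35.9 and 37.3 CPM (0.88 ± 0.24, edgeR adjusted p = 0.0280). Fen1 was the only gene of the 27 with overlapping groups, through knockout replicate 1. Both weaker calls were lost in fits that leave out 1 library, in which fewer genes were called over all tested genes too. The Rpa1 call ended without WT replicate 1 (0.63) or 2 (0.54) and without knockout replicate 2 (0.61) or 3 (0.52). That of Fen1 ended without the same libraries (0.80, 0.83, 0.75 and 0.71). Lig1 was the 1 gene of this step called in those fits. Rpa2 was at 34.3, 25.2 and 31.0 CPM and at 36.7, 35.2 and 39.0 CPM (0.29 ± 0.17). Rpa3 was at 13.9, 11.7 and 15.9 CPM and at 19.9, 14.9 and 18.4 CPM (0.36 ± 0.23). Neither smaller RPA subunit passed the test.

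In the fork protection group 3 of 4 genes rose and all 4 had non-overlapping groups. Clspn, the mediator that links a stalled fork to the Chk1 kinase, was at 29.0, 39.3 and 38.8 CPM in WT and at 81.9, 65.0 and 70.7 CPM in the knockout (1.02 ± 0.15, edgeR adjusted p = 0.000296). Here knockout replicate 1 was the highest library, unlike in most genes of the set. Wdhd1, which tethers polymerase alpha to the helicase, was at 47.4, 37.7 and 48.6 CPM and at 71.8, 81.6 and 73.2 CPM (0.76 ± 0.14, edgeR adjusted p = 0.00180). Timeless was at 55.0, 40.9 and 59.3 CPM and at 79.0, 68.3 and 70.5 CPM (0.49 ± 0.15, edgeR adjusted p = 0.0447), and its partner Tipin at 26.6, 23.4 and 27.8 CPM and at 39.0, 45.6 and 29.1 CPM (0.54 ± 0.19, edgeR adjusted p = 0.0766). Timeless was the call nearest the threshold. It was lost when any library but WT replicate 3 was left out, with values of 0.54 without WT replicate 1, 0.34 without WT replicate 2, and 0.43, 0.53 and 0.51 without knockout replicates 1, 2 and 3, and also with upper-quartile factors (0.47). Tipin was called without knockout replicate 3 (0.71).

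Genes that supply deoxynucleotides were among the most changed, with 4 of 5 called and a median of 0.86. Rrm2, the S-phase subunit of ribonucleotide reductase, was at 82.5, 70.2 and 78.0 CPM in WT and 139, 198 and 163 CPM in the knockout (1.12 ± 0.13, edgeR adjusted p = 2.79e-05), the smallest p of the 50 genes. Rrm1, the catalytic subunit, was at 88.9, 77.4 and 87.5 CPM and at 138, 183 and 179 CPM (0.98 ± 0.12, edgeR adjusted p = 5.07e-05). The log2 ratio of Rrm2 to Rrm1 was -0.14 ± 0.03 in WT and -0.01 ± 0.13 in the knockout (SD, n = 3 each), so the subunit genes moved by nearly the same factor. Per kilobase of exon length Rrm2 was at 27.7 and Rrm1 at 7.68 CPM in WT, so the ratio is not one of levels. Tyms, thymidylate synthase, was at 20.8, 29.6 and 22.5 CPM and at 37.6, 48.6 and 46.0 CPM (0.86 ± 0.18, edgeR adjusted p = 0.00467); it too has an annotated pseudogene. Dut, the enzyme that removes dUTP, was at 29.3, 29.6 and 42.5 CPM and at 50.5, 49.6 and 63.5 CPM (0.69 ± 0.17, edgeR adjusted p = 0.0160), and was not called when WT replicate 1 (0.60), WT replicate 2 (0.61) or knockout replicate 3 (0.57) was left out. Tk1, thymidine kinase of the salvage route, did not follow the others. It was at 47.5, 55.5 and 52.0 CPM and at 51.8, 50.7 and 75.7 CPM, so that knockout replicates 1 and 2 sat inside the WT range and replicate 3 above it (0.20 ± 0.16, edgeR adjusted p = 0.506, and -0.01 without knockout replicate 3).

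Other genes of replication behaved in parts like these. Of 14 origin firing factors 5 rose and 0 fell (median 0.53): Ticrr, listed in the table under an older symbol, which helps bring Cdc45 to origins (1.27 ± 0.14), the S-phase cyclin gene Ccna2 (1.13 ± 0.13), Topbp1 (0.73 ± 0.09), Dbf4, the activator of the Cdc7 kinase (0.69 ± 0.15), and Cdk2, named after its value was seen (0.89 ± 0.19). Of 17 further replisome subunits and helpers 4 rose (median 0.50), namely the topoisomerase gene Top2a (1.05 ± 0.10), the Pcna-binding factor gene Pclaf (0.96 ± 0.13), the helicase gene Pif1 (1.91 ± 0.30) and the clamp unloader gene Atad5 (0.50 ± 0.10). Small subunits of the delta and epsilon polymerases in this list did not pass. Pold4 was at -0.03 ± 0.21, Pole4 at -0.03 ± 0.18 and Pole3 at 0.50 ± 0.45, all named after their values were seen. Pole3 was low, at 3.12 and 4.43 CPM in WT and knockout, with every knockout library above every WT library. Mcm8 (0.31 ± 0.26) and Mcm9 (-0.03 ± 0.16), relatives of MCM2-7 that act in recombination, did not pass.

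Nucleotide genes outside the 5 above differed from them in count. Of 21 such genes 3 rose and 1 fell, with a median of 0.23. The dTMP kinase gene Dtymk (0.61), the CTP synthase gene Ctps (0.86) and the pyrimidine synthesis gene Cad (0.77) rose, but each call was lost in several fits. Of these 3, 0 were called when WT replicate 2 or either of knockout replicates 2 and 3 was left out. Dtymk and Ctps were also lost without WT replicate 1, Dtymk without knockout replicate 1 (0.68) or with upper-quartile factors (0.59), and Cad without WT replicate 3 (0.67) or with the replicate block (0.77, edgeR adjusted p = 0.0567). Over these fits Dtymk ran from 0.42 to 0.68, Ctps from 0.73 to 0.85 and Cad from 0.62 to 0.77. Samhd1, the enzyme that destroys dNTPs, fell from 1710 ± 70.0 to 1440 ± 44.0 CPM (-0.25 ± 0.07, edgeR adjusted p = 0.0190), and was not called once WT replicate 1 (-0.22), WT replicate 3 (-0.25) or knockout replicate 2 (-0.24) was left out. The counterparts that serve resting cells and mitochondria were on the other side of 0 from Rrm2 without passing: Rrm2b had -0.24 ± 0.14 and Tk2 -0.68 ± 0.23, both named after their values were seen. The log2 ratio of Rrm2 to Rrm2b was 0.49 ± 0.21 in WT and 1.83 ± 0.23 in the knockout (SD, n = 3 each). It too was not divided by length. Of 9 tested genes that copy mitochondrial DNA 0 were called in either direction by edgeR, DESeq2 or limma-voom, with a median of -0.02, and 1 was higher and 2 lower at an unadjusted edgeR p under 0.05. The smallest p among them belonged to Ssbp1 (-0.51 ± 0.19, edgeR adjusted p = 0.107).

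**Figure D5:**
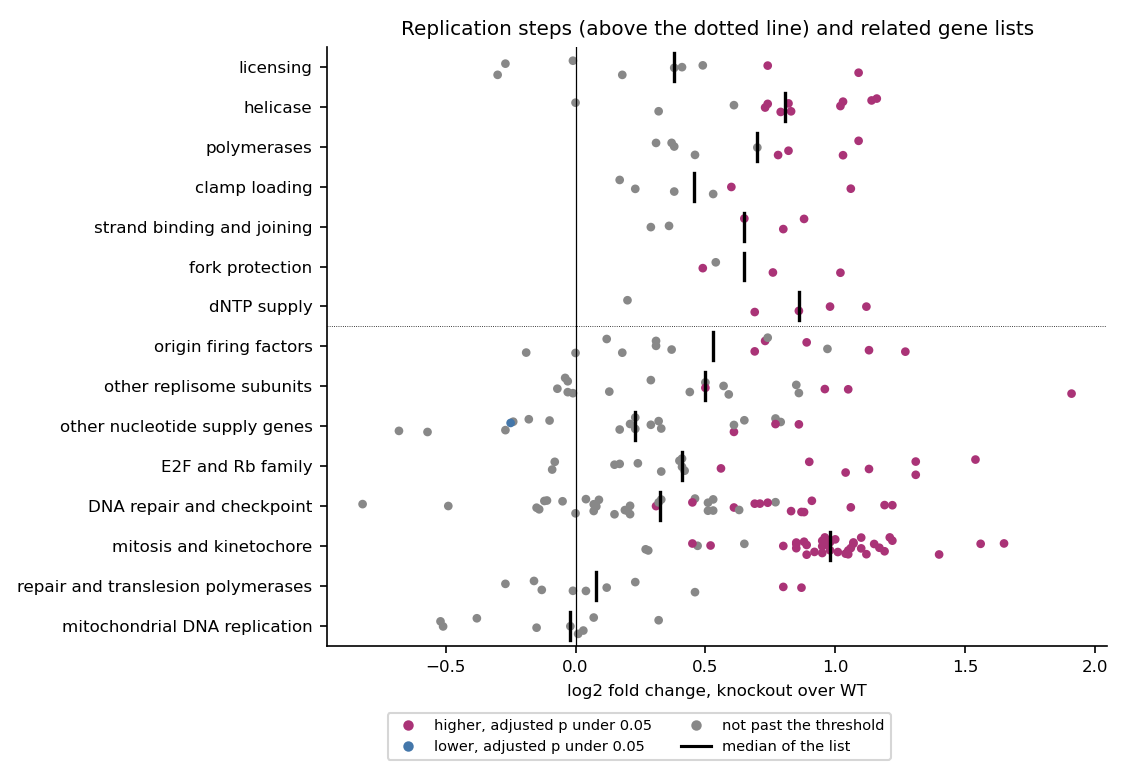
Log2 fold changes (knockout over WT) of single genes in the 7 replication steps, above the dotted line, and in related lists, with the median of each list as a black bar. Medians run from 0.38 to 0.86 in the replication steps and reach 0.98 in mitosis genes, while mitochondrial DNA genes centre at -0.02.

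Compared with neighbouring parts of the cell cycle programme, replication genes lay between mitosis genes and repair genes. In a list of 40 mitosis and kinetochore genes 36 rose and the median was 0.98, and in a list of 40 DNA repair and checkpoint genes 13 rose and the median was 0.32, against 27 of 50 and 0.67 here. The difference between the lists was not tested. Without WT replicate 1 or knockout replicate 2 the repair count was 6 or 8, and the replication count 20 or 21. The share of all genes called higher was then 2.84% or 2.71%. Over the fits that leave out 1 library the mitosis count ran from 29 to 35. Split by their level in WT, the 25 replication genes with lower levels (7.54 to 30.2 CPM) had a median of 0.61 with 11 called, and the 25 with higher levels (33.8 to 169 CPM) a median of 0.69 with 16 called.

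Knockout replicate 1 was the lowest of the knockout libraries in 24 of the 50 genes and in 17 of the 27 that rose, and knockout replicate 2 was the highest in 23 and 15. Over the same libraries, the summed level of 18 macrophage markers was 1270, 965 and 816 CPM in WT replicates 1, 2 and 3 and 469, 299 and 310 CPM in knockout replicates 1, 2 and 3, and 14 of the 18 passed the test as lower. Among other cycling or immature cells that a spleen sort could hold, the erythroblast factor gene Klf1 stood at 0.142 and 0.309 CPM in WT and knockout. The granulocyte precursor marker Mpo was at 0.479 CPM in WT replicate 1 and at 0 in the other libraries. These low values do not show that such cells were absent. Gata1, the listed hemoglobin genes, Elane, Prtn3, Ctsg, Ms4a3 and Cebpe were not among the counted symbols. The erythroblast marker Car2 was at 23.5 and 21.1 CPM in WT and knockout. Slc4a1 was at 9.36 CPM in WT and at 14.1, 19.9 and 1.96 CPM in knockout replicates 1, 2 and 3. Neither Car2 nor Slc4a1 passed. The 6 plasmablast markers in the table summed to 78.8 to 92.2 CPM in WT and 77.7 to 115 CPM in the knockout, and 0 of 3 tested passed in edgeR. Sdc1 was at 0.0703 and 0.0913 CPM, Xbp1 at 66.3 and 76.0 CPM, and Jchain at 3.66 and 7.22 CPM (0.97 ± 0.45, edgeR adjusted p = 0.215), the 1 of the 3 with an unadjusted edgeR p under 0.05. Of 9 listed neutrophil markers, the 6 among the counted symbols summed to 10.2 to 10.9 CPM in WT. In knockout replicates 1, 2 and 3 they summed to 30.5, 3.93 and 13.2 CPM. S100a9 was at 11.1, Ltf at 4.42 and Ngp at 4.19 CPM in knockout replicate 1. Csf3r, most of the WT sum, went the other way without passing (7.94 and 5.61 CPM in WT and knockout, -0.50 ± 0.36). Ly6g, Retnlg and Mmp8 were not among the counted symbols. The 8 erythroblast markers in the table summed to 256 to 276 CPM in WT and 315 to 403 CPM in the knockout, most of it from the transferrin receptor gene Tfrc (224 and 303 CPM), which all dividing cells use and which passed the test as higher, except without WT replicate 1 (0.40) or knockout replicate 2 (0.33). B cell markers summed to 396 to 470 and 464 to 526 CPM, most of it from Cd22 (364 and 404 CPM), with every other marker at a mean of 21.4 CPM or less, and 0 of 9 tested passed in edgeR, DESeq2 or limma-voom, or at an unadjusted edgeR p under 0.05. In the progenitor list Myb passed as higher (7.27 ± 4.32 and 17.9 ± 0.704 CPM) and Kit as lower (784 ± 22.7 and 642 ± 30.8 CPM). Myb was not called without WT replicate 2 (1.05), WT replicate 3 (1.06) or knockout replicate 2 (1.28), nor without knockout replicate 3 (1.26). Kit was not called without WT replicate 2 (-0.28), WT replicate 3 (-0.27) or knockout replicate 2 (-0.25). The 8 markers of type-1 conventional dendritic cells summed to 193, 159 and 129 CPM in WT replicates 1, 2 and 3. Knockout replicates 1, 2 and 3 had 221, 105 and 109 CPM, and Cadm1 alone passed, as lower. Of 8 tested monocyte markers, Csf1r, Lyz2 and Plac8 passed as lower. In the T cell, NK cell and plasmacytoid lists Tcf7, Klrk1 and Spib passed as higher and Klrd1 as lower. The calls of Cadm1, Tcf7, Lyz2 and Plac8 were lost in several fits that leave out 1 library. The part of these marker differences in the replication values was not tested.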

How the data were processed

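RNA from splenic cDC2s was sequenced in 6 libraries, 3 WT and 3 Arhgef1-/-, grouped and numbered by their titles. The authors deposited unnormalised read counts, 1 row per gene symbol. STAR, HTSeq, DESeq2 and mm10 are named in the submitters' processing notes, with no versions; annotation, strand setting and any filter on symbols have no source here. The members and lists were chosen with earlier results of these data known.

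Counts were filtered with filterByExpr, scaled by TMM (factors 0.977 to 1.02) and tested with edgeR 4.0.16 in R 4.3.3 by its quasi-likelihood test of genotype (common biological coefficient of variation 0.189), with Benjamini-Hochberg adjustment over 11504 genes and a threshold of 0.05. The SE is the log2 difference over the square root of F, and 95% intervals use that SE. The procedure was tested on simulated data. Positions and lengths came from GENCODE vM21 (mm10), and promoters from RefSeq on GRCm38.p6. In 19 of the 50 genes an exon overlaps another gene in the annotation, so reads may be shared.

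Values in every library are given for the 4 genes with the smallest p and the 1 with the largest p in each step. From each related list up to 4 genes with the smallest p were named, and others are marked where they occur. Cell type markers were also named outside this rule. Alternatives were DESeq2 1.42.0 and its size factors, total counts, upper-quartile factors, limma-voom 3.58.1, no filter, a filter of 5 CPM in 3 libraries, the replicate number as a block and each library left out.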

Additional observations from a re-analysis of the deposited data

How the results depend on the processing

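The count of 27 replication genes called higher was 26 to 30 under the other normalisations, filters and tools and 20 to 26 with 1 library left out, and 0 were called lower in any of these fits. With the replicate number of the titles as a block the same 27 replication genes were called. The correlation of same-numbered deviations was 0.0382, -0.0326 and -0.0330 for numbers 1, 2 and 3. No shared effect of the number was visible, but this cannot show whether the libraries were paired by design. Over all genes, leaving out 1 library gave 310 to 583 higher and 264 to 489 lower genes, and the repair and checkpoint list gave 6 to 10 higher. The median of the repair list was 0.45 with the stricter filter, which tests fewer genes. Signs that turned all belonged to values near 0 that were not called: Orc3 was 0.03 with total counts, 0.02 without WT replicate 3 and -0.06 to 0.04 over all fits that leave out 1 library; Gins3 was -0.02 with upper-quartile factors, -0.05 with limma-voom, -0.04 with the replicate block, -0.08 without WT replicate 3 and -0.33 to 0.19 over the fits without 1 library; Tk1 ran from -0.01 without knockout replicate 3 to 0.30 without knockout replicate 1; the median of the mitochondrial list was 0.01 with total counts and that of the repair and translesion polymerases from -0.04 without knockout replicate 3 to 0.22 without WT replicate 1. Per coding length the highest over the lowest level was 2.90 for MCM2-7 and 26.3 for the origin recognition genes. Searched alone, TTTGGCGC was in 6 replication promoters, TTTCCCGC in 8, TTTGGCGG in 3, TTTCGCGC in 6 and TTTCCCGG in 0. Precision is limited by 3 libraries a group and by the lower levels of the set, from 7.54 CPM, so the 23 genes that did not pass are not shown to be unchanged.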

Other observations

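The E2F family and its partners, which control many of the genes above, were measured too. Of 17 genes 7 rose and 0 fell, with a median log2 fold change of 0.41. E2f8 rose from 60.1 ± 3.74 to 149 ± 20.1 CPM (1.31 ± 0.12, edgeR adjusted p = 6.96e-06) and E2f7, also an atypical repressor that acts late in S phase, from 17.8 ± 3.24 to 44.1 ± 7.81 CPM (1.31 ± 0.19). Foxm1, the factor of mitotic genes, rose from 46.2 ± 6.22 to 101 ± 11.4 CPM (1.13 ± 0.14), and E2f2 from 128 ± 9.60 to 189 ± 23.5 CPM (0.56 ± 0.11). The pocket protein genes Rb1 (-0.08 ± 0.08) and Rbl2 (-0.09 ± 0.12), named after their values were seen, did not pass. The related Rbl1, also named after its value was seen, did not pass either (0.42 ± 0.14, edgeR adjusted p = 0.0559). All 3 of its knockout values lay above all 3 WT values. Without knockout replicate 2 the list had 4 called genes.

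Among 10 tested repair and translesion polymerase genes 2 rose and the median was 0.08. Polq, the polymerase of end joining by microhomology, rose by 0.87 ± 0.16 (edgeR adjusted p = 0.00224). Polh, the translesion polymerase eta, rose by 0.80 ± 0.19 but was not called when WT replicate 3 (0.74) or knockout replicate 2 (0.64) was left out, which leaves Polq. Rev1 had 0.46 ± 0.17 and Poli -0.27 ± 0.15, and neither passed.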
